A study of Homo sapiens with 6 samples.

Results

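The genes described here are B2M, HLA-B, HLA-C, TAP1, TAP2, TAPBP, PSMB8, PSMB9 and NLRC5, which build or control the machinery that shows peptides on MHC class I. They were taken by symbol from knowledge of the pathway, with earlier results of these data known, and all 9 were found among the 17468 genes of the expression table. All 9 also passed the filter on low values, a mean of at least 1 FPKM over the libraries, which 11129 genes passed. FPKM counts sequenced fragments per kilobase of a transcript, adjusted for the number sequenced in each library, so levels can be set side by side between genes.

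RNA sequencing was used to profile 2 established human melanoma cell lines, Colo800 and A375. Each line was infected with 1 of 3 short hairpin RNAs, ETV1-sh2, ETV1-sh1 or a scrambled control, and harvested on day 4 according to the series' design text; ETV1 is a transcription factor of the ETS family. The table holds 6 libraries, 1 per line and hairpin, so no line and hairpin has a replicate of its own. The treatment label adds a drug to each hairpin, 5 nM trametinib (a MEK inhibitor) to ETV1-sh2, DMSO to ETV1-sh1 and 1 uM vemurafinib (spelled so in the labels, a BRAF inhibitor) to the scrambled control, whereas the design text names none. The protocol label describes siRNA transfection followed by drug, which differs from hairpin infection as well. A hairpin and the drug labelled with it cannot be told apart in any comparison below.

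ETV1 itself was measured first, as a check of the hairpin labels. In Colo800 it had 9.80 FPKM with ETV1-sh2, 54.6 FPKM with ETV1-sh1 and 180.3 FPKM with the scrambled hairpin. In A375 it had 3.46 FPKM with ETV1-sh2, 34.6 FPKM with ETV1-sh1 and 82.8 FPKM with the scrambled hairpin. ETV1 therefore stood at 5.43% and 4.18% of the scrambled level with ETV1-sh2, and at 30.3% and 41.8% with ETV1-sh1, in Colo800 and A375. The FPKM sums of the libraries lay between 589256 and 710498, and absolute depth is unknown. The melanocyte-lineage factor SOX10 had 353 to 712 FPKM in all 6 libraries, and MIA, another melanoma gene, 86.9 to 130 FPKM. MITF, another factor of that lineage, had 38.4 to 116 FPKM in Colo800 and 8.61 to 12.6 FPKM in A375. The pigment genes TYR and DCT had 14.8 to 125 FPKM in Colo800 and at most 0.0758 FPKM in A375, and MLANA had 0.301 to 1.85 FPKM. Of the leukocyte markers, CD3E, MS4A1 and PTPRC had 0 to 0.121 FPKM, while CD68 had 76.6 to 306 FPKM and LYZ 12.2 to 21.0 FPKM in A375.

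MHC class I molecules are a heavy chain, such as HLA-B or HLA-C, paired with beta-2-microglobulin, the product of B2M, and they hold a short peptide out to CD8+ T cells. The peptides are cut by the proteasome, in which the inducible subunits PSMB8 and PSMB9 can take the place of the constitutive PSMB5 and PSMB6, and are pumped into the endoplasmic reticulum by the transporter made of TAP1 and TAP2. There tapasin, the product of TAPBP, holds the empty heavy chain at the transporter, while NLRC5 acts in the nucleus as a transactivator of class I pathway genes. Interferon raises most of these genes, and melanomas are known for low class I display in some tumours.

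The promoter sequences are shown because these genes are known to share control elements, so a reader can set the letters beside the values that follow. The bases come from RefSeq gene starts on GRCh38.p14, written 5′ to 3′ on the strand of the gene, and they are the reference letters, not the alleles of these lines. Capitals mark matches, on either strand, to the Y box core CCAAT, the X2 box core TGACG, the interferon-stimulated response element (GAAA, any 2 bases, GAAA) or the shorter IRF-type site GAANNGAAA. Adjacent or overlapping matches run together in the capitals. The first 3 sequences lie outside annotated exons, and the others are 30-base stretches around a match that overlap annotated exons.
B2M, chr15:44711317-44711486, plus strand: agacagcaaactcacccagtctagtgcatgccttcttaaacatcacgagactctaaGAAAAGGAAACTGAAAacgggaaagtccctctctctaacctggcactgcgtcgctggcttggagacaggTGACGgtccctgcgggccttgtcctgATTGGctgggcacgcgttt
HLA-C, chr6:31272131-31272342, minus strand: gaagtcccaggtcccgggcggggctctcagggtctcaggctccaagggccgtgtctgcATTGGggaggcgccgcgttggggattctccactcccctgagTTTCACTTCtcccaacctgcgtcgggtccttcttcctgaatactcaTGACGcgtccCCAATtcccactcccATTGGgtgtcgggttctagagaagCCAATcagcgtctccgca
PSMB9, chr6:32853979-32854147, plus strand: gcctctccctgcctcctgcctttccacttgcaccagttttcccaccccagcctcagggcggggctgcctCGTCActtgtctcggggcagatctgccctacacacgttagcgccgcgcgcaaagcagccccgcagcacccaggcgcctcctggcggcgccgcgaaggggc
HLA-B, chr6:31357316-31357345, minus strand: actcccctgagTTTCACTTCttctcccaac
TAP1, chr6:32853819-32853848, minus strand: aggcggccgcTTTCGATTTCGCTTTCccct
TAP2, chr6:32838784-32838813, minus strand: ccttggctgggGAAGCGAAAGCGAAAgctg
TAPBP, chr6:33314079-33314108, minus strand: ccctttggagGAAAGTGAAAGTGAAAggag

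Within the 250 bases before their RefSeq starts, B2M, TAP1, TAP2 and TAPBP held the interferon-stimulated response element, which 3.02% of 35116 promoter windows hold. In TAP1 it lay at 1 of the 2 RefSeq starts. Genes with 2 starts, TAP1 and PSMB8, had 2 windows to hold a match, whereas these shares are per window. HLA-B, HLA-C and TAP2 held the shorter GAANNGAAA, found in 6.56% of windows, and in TAP2 it overlaps the longer element. Neither was found in the windows of PSMB8 or PSMB9. CCAAT was found in HLA-B, HLA-C, B2M, TAP1 and PSMB9, beside 32.0% of all windows. The TAP1 and PSMB9 matches are the same bases, where their windows overlap. TGACG was found in HLA-B, HLA-C, B2M, TAP2, PSMB8 and PSMB9, beside 21.2%. The CCAAT of TAP1 and the TGACG of PSMB8 lay at 1 of the 2 RefSeq starts of each gene. The ETS core CCGGAA, the kind of site an ETS factor such as ETV1 reads, was found at 1 of the 2 RefSeq starts of TAP1 and in no other of these windows, beside 14.5% of all windows. The gamma-activated site TTCNNNGAA was found at 1 start of PSMB8 and 1 of TAP1, beside 6.57%. TAP1 and PSMB9 are transcribed away from each other from neighbouring starts on chromosome 6, and their sequences above come from that shared stretch. NLRC5 has no sequence printed.

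The heavy chains and B2M were the most abundant of the set, and none of them passed in any hairpin comparison. HLA-B (ENSG00000234745), a classical heavy chain, had 173.7 FPKM with ETV1-sh2, 200.2 with ETV1-sh1 and 171.9 with the scrambled hairpin in Colo800. In A375 HLA-B had 157.1 FPKM with ETV1-sh2, 194.1 with ETV1-sh1 and 199.9 with the scrambled hairpin. The hairpin libraries were thus above scrambled in Colo800 and below it in A375. HLA-C (ENSG00000204525), another classical heavy chain, had 348 FPKM with ETV1-sh2, 352 with ETV1-sh1 and 313 with the scrambled hairpin in Colo800. In A375 it had 317 FPKM with ETV1-sh2, 294 with ETV1-sh1 and 320.4 with the scrambled hairpin. The same split between the lines was seen for HLA-C, with values of hairpin and scrambled libraries overlapping over all 6.

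B2M (ENSG00000166710), the light chain that every class I molecule needs, ranked 31 to 41 among the 17468 genes in every library. It had 1776 FPKM with ETV1-sh2, 1773 with ETV1-sh1 and 1428 with the scrambled hairpin in Colo800. In A375 it had 1566 FPKM with ETV1-sh2, 1776 with ETV1-sh1 and 1577 with the scrambled hairpin. The Colo800 scrambled library was the lowest of the 6, and in A375 the scrambled library lay between the hairpin libraries.

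The transporter subunits did not move together. TAP1 (ENSG00000168394), 1 subunit of the peptide pump, had 22.4 FPKM with ETV1-sh2, 15.8 with ETV1-sh1 and 8.89 with the scrambled hairpin in Colo800. In A375 TAP1 had 25.9 FPKM with ETV1-sh2, 22.2 with ETV1-sh1 and 20.9 with the scrambled hairpin. The order of the hairpins was the same in both lines, and the spread was wider in Colo800. TAP2 (ENSG00000204267), its partner, had 53.6 FPKM with ETV1-sh2, 115.4 with ETV1-sh1 and 72.5 with the scrambled hairpin in Colo800. In A375 it had 70.3 FPKM with ETV1-sh2, 77.0 with ETV1-sh1 and 77.0 with the scrambled hairpin. For TAP2 the ETV1-sh2 library was the lowest in both lines. The ratio of TAP2 to TAP1 was 2.399 with ETV1-sh2, 7.31 with ETV1-sh1 and 8.15 with the scrambled hairpin in Colo800. In A375 the ratio was 2.72 with ETV1-sh2, 3.46 with ETV1-sh1 and 3.68 with the scrambled hairpin. ETV1-sh2 gave the lowest ratio in each line. In the annotation TAP2 shares 35.8% of the 50-base words of its transcript with a second gene model, AL669918.1, and how such fragments were divided between the models is not stated.

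TAPBP (ENSG00000231925), tapasin, had the widest fold range of the 9 genes among the A375 libraries. It had 79.6 FPKM with ETV1-sh2, 148.4 with ETV1-sh1 and 58.1 with the scrambled hairpin in Colo800. In A375 TAPBP had 56.8 FPKM with ETV1-sh2, 82.3 with ETV1-sh1 and 28.8 with the scrambled hairpin. Both hairpins were above scrambled in both lines, and ETV1-sh1 was the highest in both.

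The inducible proteasome subunits were above scrambled in all 4 hairpin libraries. PSMB9 (ENSG00000240065), which replaces PSMB6, had 35.1 FPKM with ETV1-sh2, 30.1 with ETV1-sh1 and 15.2 with the scrambled hairpin in Colo800. In A375 PSMB9 had 28.96 FPKM with ETV1-sh2, 26.1 with ETV1-sh1 and 12.9 with the scrambled hairpin. No hairpin library overlapped a scrambled one, across lines as well as within them. PSMB8 (ENSG00000204264), which replaces PSMB5, had 26.1 FPKM with ETV1-sh2, 26.1 with ETV1-sh1 and 17.6 with the scrambled hairpin in Colo800. In A375 PSMB8 had 25.9 FPKM with ETV1-sh2, 22.4 with ETV1-sh1 and 18.8 with the scrambled hairpin. These groups did not overlap either, with a narrower gap than for PSMB9. Of the 9 genes, 2 were higher in this way, beside 6.45% of all genes tested, and 0 were lower, beside 4.39%. PSMB9 and PSMB8 overlap in the annotation on opposite strands, and PSMB9 shares 12.1% of its 50-base words with PSMB8-AS1. Strandedness is not stated, so reads in these overlaps cannot be assigned with certainty.

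NLRC5 (ENSG00000140853), the transactivator, was the least abundant of the 9 genes. It had 1.68 FPKM with ETV1-sh2, 2.84 with ETV1-sh1 and 1.88 with the scrambled hairpin in Colo800. In A375 NLRC5 had 2.55 FPKM with ETV1-sh2, 4.46 with ETV1-sh1 and 2.14 with the scrambled hairpin. ETV1-sh1 was the highest in both lines, while ETV1-sh2 lay below scrambled in Colo800 and above it in A375.

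**Figure D1:**
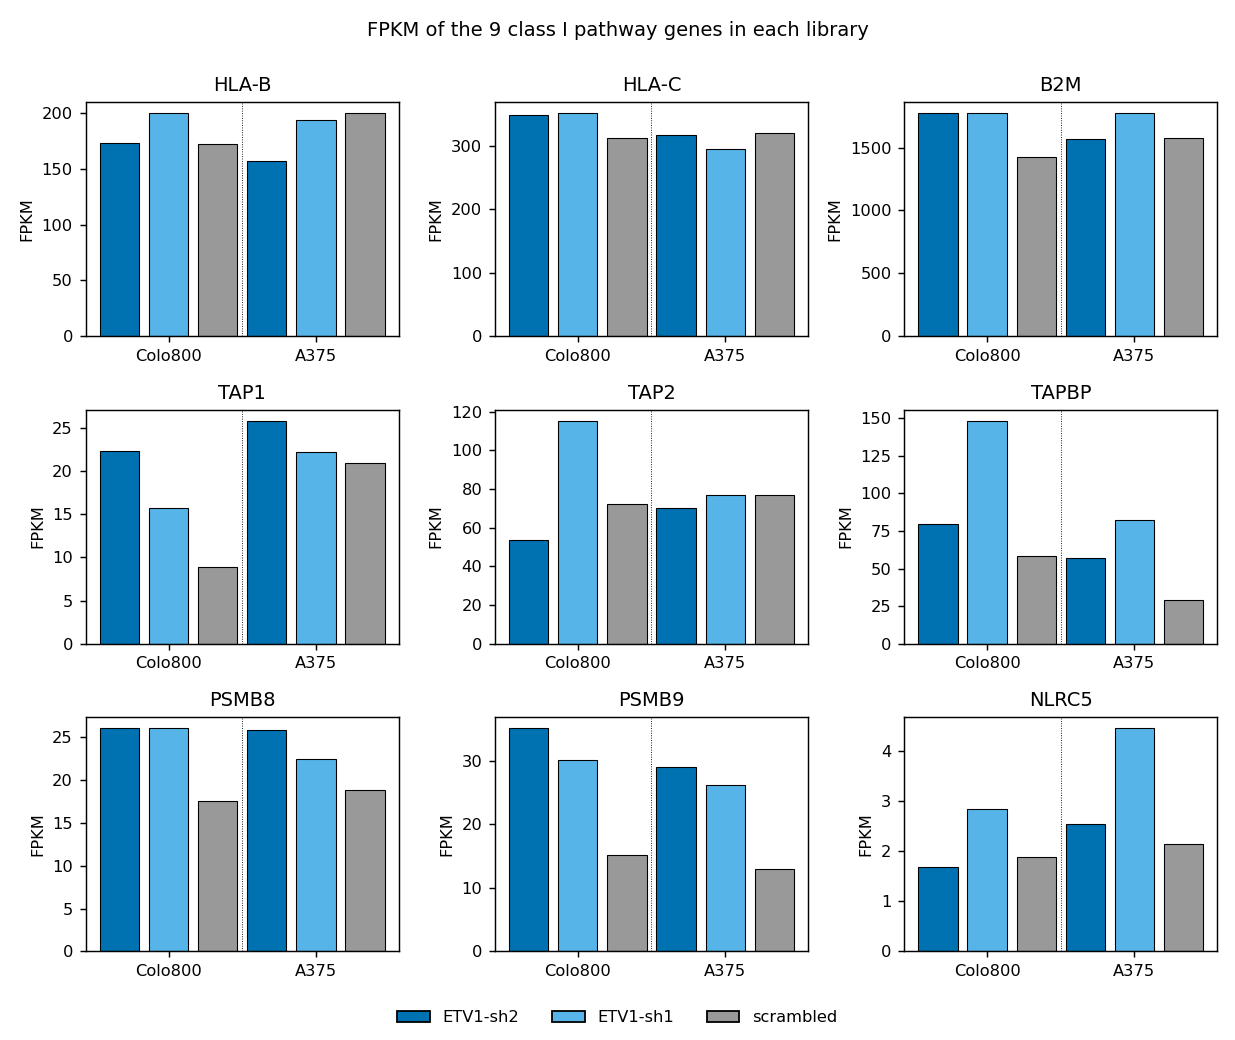
Level of each of the 9 genes in FPKM (vertical axes, starting at 0 and scaled for each gene) in the 3 libraries of Colo800 and of A375; each bar is 1 library, so there are no error bars. PSMB9 and PSMB8 are higher in all 4 hairpin libraries than in both scrambled ones, and TAPBP is highest with ETV1-sh1 in each line, at 148.4 and 82.3 FPKM.

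Together the 9 genes took 0.388%, 0.375% and 0.296% of the FPKM sum in Colo800 with ETV1-sh2, ETV1-sh1 and the scrambled hairpin. In A375 they took 0.382%, 0.413% and 0.357% in the same order. B2M dominates this share. Whether a bulk level is lower because fewer cells express a gene or because each cell holds less of its RNA cannot be told apart.

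Within a line the comparison is 1 library against 1, given as a difference in log2(FPKM + 1) with no test, and a gene was counted at a 2-fold difference. That scale understates the difference of low genes such as NLRC5. With ETV1-sh2 in Colo800, 2 of the 9 genes were at least 2-fold higher than scrambled, TAP1 (1.24) and PSMB9 (1.16), beside 5.18% of all genes tested, and 0 were 2-fold lower, beside 6.38%. With ETV1-sh1 in Colo800, 1 was 2-fold higher, TAPBP (1.34), beside 2.54% of all genes, and 0 were lower, beside 3.96%. With ETV1-sh2 in A375, 1 was 2-fold higher, PSMB9 (1.11), beside 6.93%, and 0 were lower, beside 8.29%. With ETV1-sh1 in A375, 1 was 2-fold higher, TAPBP (1.48), beside 2.77%, and 0 were lower, beside 3.89%. In plain FPKM, NLRC5 (2.09-fold) and PSMB9 (2.02-fold) were also over 2-fold in that pair, and 3 genes were counted with a pseudocount of 0.1.

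With the pseudocount of 1, PSMB9 and TAPBP accounted for 4 of the 5 such counts. The PSMB9 differences were 1.16 and 0.94 in Colo800 and 1.11 and 0.96 in A375, for ETV1-sh2 and ETV1-sh1, a narrow range over lines and hairpins. Those of TAPBP were 0.45 and 1.34 in Colo800 and 0.95 and 1.48 in A375, always larger with ETV1-sh1. TAP1 differed by 1.24 and 0.76 in Colo800 and by 0.29 and 0.08 in A375. PSMB8 differed by 0.54 and 0.54 in Colo800 and by 0.44 and 0.24 in A375. TAP1, TAPBP, PSMB8 and PSMB9 were the members positive in all 4 differences, a pattern shown by 19.7% of all genes tested; within a line these differences share the scrambled library. The median over the 9 genes was 0.31 and 0.54 in Colo800 and 0.18 and 0.17 in A375, for ETV1-sh2 and ETV1-sh1, and that over all genes lay between -0.02 and 0.05.

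**Figure D2:**
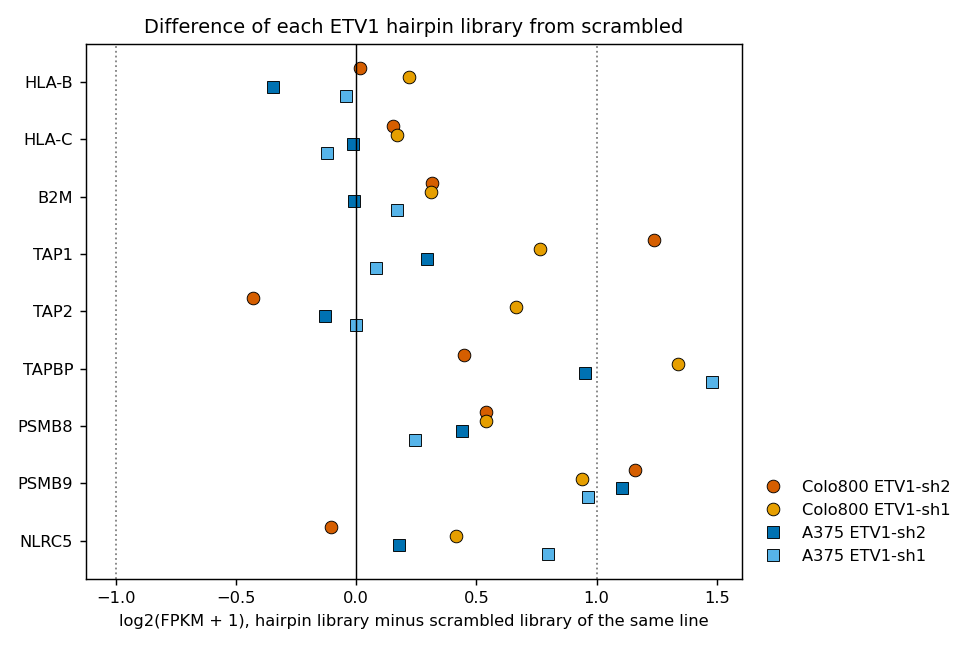
Difference in log2(FPKM + 1) between each ETV1 hairpin library and the scrambled library of its line (horizontal axis) for the 9 genes; each point is 1 library against 1, and dotted lines mark 2-fold. The 4 points of PSMB9 lie together between 0.94 and 1.16, those of TAPBP spread from 0.45 to 1.48, and those of HLA-B and HLA-C lie on both sides of 0.

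Fitted over both lines, PSMB9 and TAPBP were higher with ETV1-sh2 and with ETV1-sh1 than with scrambled at an adjusted p under 0.05. No other of the 9 genes passed with either hairpin. The limma fit of log2(FPKM + 1) had a term for the line and 3 hairpin levels, with Benjamini-Hochberg adjustment over 11129 genes, and the lines are its replication (2 libraries against 2, 2 residual degrees of freedom). Under ETV1-sh2, 2 of the 9 genes rose, beside 7.73% of all genes, and 0 fell, beside 9.0%. PSMB9 rose by 1.13 on the log2 scale (SE 0.162, adjusted p = 0.0138), higher in 2 of 2 lines. TAPBP rose by 0.70 (SE 0.183, adjusted p = 0.0483), also in 2 of 2 lines. TAP1 at 0.77 (adjusted p = 0.0866) and PSMB8 at 0.49 (adjusted p = 0.0988) did not pass. Over the alternatives the TAP1 estimate ranged from 0.36 to 1.17, and it passed in 1 of 10, with 1 library left out. The other 5 genes lay between -0.28 for TAP2 and 0.15 for B2M, with adjusted p from 0.450 to 0.921.

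Under ETV1-sh1, 2 of the 9 genes rose, beside 0.773% of all genes, and 0 fell, beside 1.51%. TAPBP rose by 1.41 (SE 0.183, adjusted p = 0.0281) and PSMB9 by 0.95 (SE 0.162, adjusted p = 0.0455), each in 2 of 2 lines. NLRC5, the transactivator, stood at 0.61 (SE 0.228, adjusted p = 0.227) and did not pass. All 9 estimates were positive with ETV1-sh1, as for 50.2% of all genes, and 7 of 9 with ETV1-sh2, as for 53.4%. The median over the 9 genes was 0.15 with ETV1-sh2 and 0.39 with ETV1-sh1, beside 0.05 and 0.00 over all genes. Both comparisons use the same scrambled libraries, and both calls were lost for both hairpins when either scrambled library was left out (adjusted p from 0.0761 to 0.324) or when no filter on low values was used (0.0638 to 0.149). The ETV1-sh1 calls were also lost without either ETV1-sh1 library (adjusted p from 0.209 to 0.252), and the TAPBP call under ETV1-sh2 without either ETV1-sh1 library (0.0822 and 0.0821) or the A375 ETV1-sh2 library (0.48, adjusted p = 0.214). The estimates for the heavy chains carried 95% intervals of -0.56 to 0.23 for HLA-B and -0.31 to 0.45 for HLA-C under ETV1-sh2, and of -0.31 to 0.48 and -0.36 to 0.40 under ETV1-sh1.

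**Figure D3:**
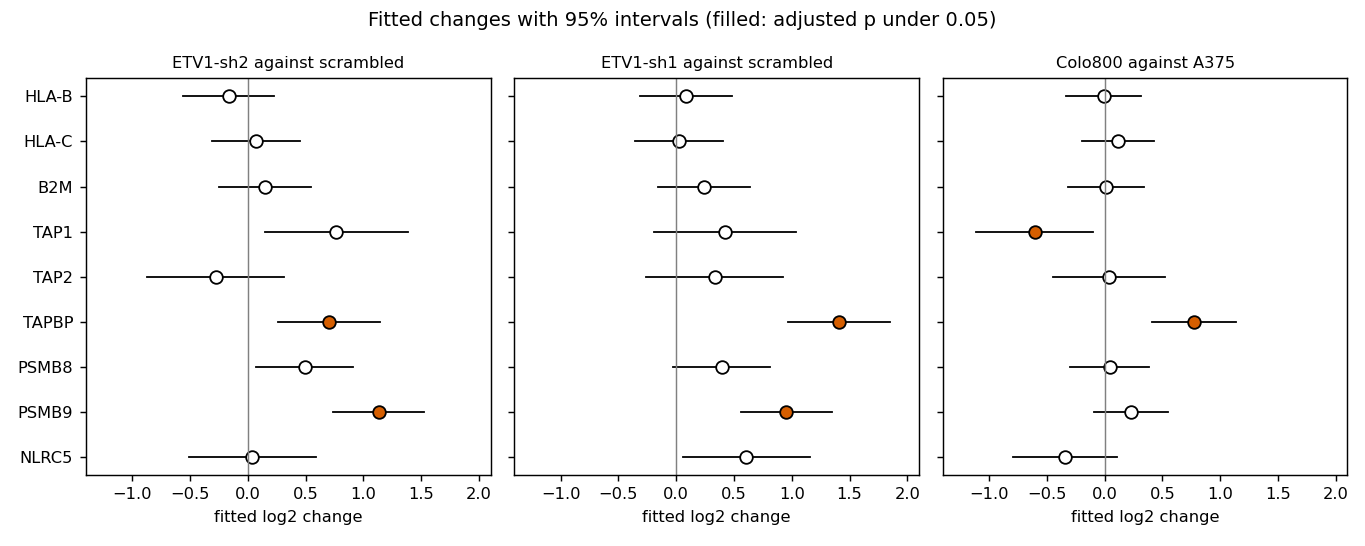
Fitted log2 change (horizontal axis) with its 95% interval for the 9 genes under ETV1-sh2 against scrambled, ETV1-sh1 against scrambled and Colo800 against A375, from limma over 6 libraries; filled points have an adjusted p under 0.05. PSMB9 and TAPBP are filled in both hairpin panels, and TAPBP (0.77) and TAP1 (-0.61) in the panel of lines.

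With both hairpins pooled against scrambled (4 libraries against 2, the line as a block), 0 of the 9 genes and 0% of all genes were called in either direction. PSMB9 had an estimate of 1.04 (SE 0.195, adjusted p = 0.279) and TAPBP one of 1.05 (SE 0.308, adjusted p = 0.366). At an unadjusted p under 0.05 these 2 genes were higher and 0 were lower, beside 637 higher and 567 lower among all genes, and the smallest adjusted p of any gene was 0.135. In this fit a gap between the hairpins counts as spread, and ETV1 itself, at -2.81, did not pass (adjusted p = 0.414).

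Set against each other, ETV1-sh2 and ETV1-sh1 called 0 of the 9 genes in either direction, beside 6.82% of all genes higher and 6.91% lower with ETV1-sh2. TAPBP came nearest, at -0.71 (95% interval -1.15 to -0.27, adjusted p = 0.0524). TAP2 stood at -0.61 (adjusted p = 0.143) and NLRC5 at -0.57 (adjusted p = 0.140), and these 3 were the members lower at an unadjusted p under 0.05. For PSMB9 the difference was 0.18 with an interval of -0.21 to 0.57, so a difference between the hairpins in either direction of that size is not excluded. The TAPBP difference passed when the libraries were centred on their medians (-0.73, adjusted p = 0.0465) and without the A375 ETV1-sh2 library (-0.93, adjusted p = 0.0352), within a range of 0.0352 to 0.198 over the alternatives.

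The hairpin effect was not shown to differ between the lines: 0 of the 9 genes and 0% of all genes were called for the interaction of line and hairpin in either direction. The smallest adjusted p was 1.00, and 42 genes higher and 24 lower at an unadjusted p under 0.05 included 0 of the 9. The gap between the hairpins within a line is the spread of that fit.

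Between the lines themselves, TAPBP and TAP1 differed in opposite directions. TAPBP was higher in Colo800 than in A375 by 0.77 on the log2 scale (SE 0.150, adjusted p = 0.00593), higher in 3 of 3 hairpin pairs; this 1 member was called higher, beside 31.8% of all genes. TAP1 was lower in Colo800 (-0.61, SE 0.208, adjusted p = 0.0455), lower in 3 of 3 pairs; this 1 member was called lower, beside 25.3% of all genes. The TAP1 call was lost without either scrambled library (-0.34, adjusted p = 0.252 and 0.250) and without either ETV1-sh1 library (-0.67, adjusted p = 0.111 and 0.110). The other 7 genes had estimates from -0.35 for NLRC5 to 0.23 for PSMB9, with adjusted p of 0.154 or more. In the scrambled libraries alone, 0 of the 9 genes were at least 2-fold higher in Colo800, beside 17.2% of all genes, and 1 was 2-fold lower, TAP1 at -1.15, beside 13.4%. TAPBP stood at 0.99 on this scale and at 2.02-fold in plain FPKM, and it was counted with a pseudocount of 0.1.

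The share of the inducible subunit in each catalytic pair is a ratio within a library and needs no scaling between libraries. PSMB9 made up 20.2% of the summed FPKM of PSMB9 and PSMB6 with ETV1-sh2, 19.3% with ETV1-sh1 and 13.7% with the scrambled hairpin in Colo800. In A375 its share was 20.7% with ETV1-sh2, 21.8% with ETV1-sh1 and 11.3% with the scrambled hairpin. PSMB6 itself had estimates of 0.33 and 0.14 under ETV1-sh2 and ETV1-sh1 (adjusted p = 0.242 and 0.716). PSMB8 made up 14.3%, 13.5% and 11.7% of PSMB8 and PSMB5 in Colo800 with ETV1-sh2, ETV1-sh1 and the scrambled hairpin. In A375 its share was 15.2%, 16.1% and 11.4% in the same order. Both shares were higher in all 4 hairpin libraries than in both scrambled ones. PSMB10, the third inducible subunit, made up 2.55%, 2.70% and 3.20% of PSMB10 and PSMB7 in Colo800 and 7.12%, 5.52% and 6.41% in A375, in that order of hairpins. The PSMB10 share was below scrambled with both hairpins in Colo800, lay on both sides of scrambled in A375 and separated the lines, and PSMB10 was lower in Colo800 (-1.19 on the log2 scale, adjusted p = 0.00174).

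**Figure D4:**
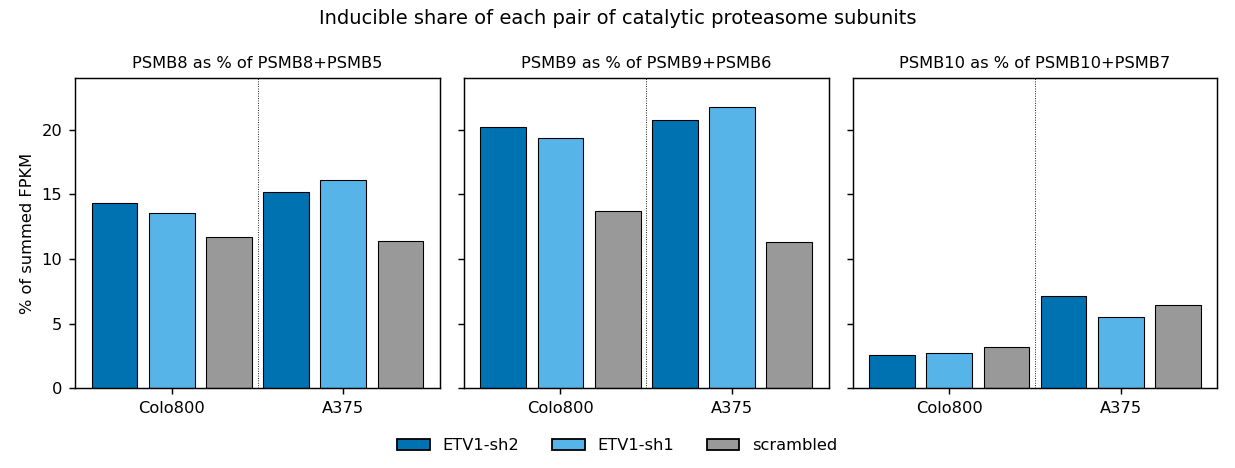
Share of the inducible subunit, as a percentage of the summed FPKM of the inducible and the constitutive subunit (vertical axis, from 0), for the 3 catalytic pairs in each library; each bar is 1 library. The PSMB9 share is 19.3% to 21.8% in the hairpin libraries against 13.7% and 11.3% in the scrambled ones, and PSMB10 does not follow it.

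The heavy chains HLA-E, HLA-F and HLA-G did not pass in any fit. HLA-F, the one with the largest estimates, had 28.6 FPKM with ETV1-sh2, 39.7 with ETV1-sh1 and 23.96 with the scrambled hairpin in Colo800. In A375 HLA-F had 35.9 FPKM with ETV1-sh2, 26.2 with ETV1-sh1 and 20.9 with the scrambled hairpin. Its estimates were 0.50 and 0.51 under ETV1-sh2 and ETV1-sh1 (adjusted p = 0.187 and 0.313). HLA-C shares 6.71% of its 50-base words with other genes and HLA-B 2.54%, so their fragments could be divided between copies. HLA-B relative to HLA-C stood at 0.499, 0.569 and 0.550 in Colo800 and at 0.495, 0.659 and 0.624 in A375, for ETV1-sh2, ETV1-sh1 and scrambled, lowest with ETV1-sh2 in both lines.

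Of 17 tested partners in peptide supply and loading, 2 rose and 1 fell under ETV1-sh2, near the shares of 7.73% and 9.0% over all genes. Without the filter on low values 0 genes of the table were called with either hairpin, so the calls in this and the following gene groups hold with that filter. NPEPPS, a cytosolic aminopeptidase, rose by 0.74 (adjusted p = 0.0451), and PSME1, a subunit of the proteasome activator PA28, rose by 0.60 (adjusted p = 0.0485). TPP2, a cytosolic peptidase, fell (-0.79, adjusted p = 0.0441). Under ETV1-sh1, 0 rose, beside 0.773% of all genes, and 1 fell, beside 1.51%. The fallen gene was PDIA3, the disulfide isomerase bound to tapasin in the loading complex, at -2.03 (adjusted p = 0.0161). PDIA3 had 612 FPKM with ETV1-sh2, 199 with ETV1-sh1 and 882 with the scrambled hairpin in Colo800. In A375 PDIA3 had 173 FPKM with ETV1-sh2, 49.9 with ETV1-sh1 and 192 with the scrambled hairpin. ETV1-sh1, the hairpin with the highest TAPBP, thus had the lowest PDIA3 in each line. Between the hairpins PDIA3 (1.70, adjusted p = 0.00651) and NPEPPS (0.95, adjusted p = 0.0265) were higher with ETV1-sh2. Between the lines 5 of the 17 were higher in Colo800, the folding factors CANX (0.97), HSPA5 (0.93), UGGT1 (1.03) and PDIA3 (1.99) and the translocon subunit SEC61A1 (1.49). Lower were 2, ERAP1, which trims peptides in the endoplasmic reticulum (-0.94), and PSMB10. Over all genes 31.8% were higher and 25.3% lower in Colo800, so neither count exceeds the background share.

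Of the 14 constitutive proteasome genes tested, 1 fell with each hairpin and 0 rose. Over all genes 9.0% fell and 7.73% rose under ETV1-sh2, so its 1 fallen gene is near the background. Under ETV1-sh1 the shares were 1.51% and 0.773%. The fallen genes were PSMA1 under ETV1-sh2 (-0.82, adjusted p = 0.0212) and PSMA6 under ETV1-sh1 (-1.01, adjusted p = 0.0431), both structural subunits of the core. The medians of the list were 0.01 and 0.03.

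Among 23 tested regulators of class I, 4 rose and 3 fell under ETV1-sh2, while 0 did so in either direction under ETV1-sh1. Over all genes 7.73% rose and 9.0% fell under ETV1-sh2, and 0.773% and 1.51% under ETV1-sh1, so the fallen regulators and the 0 under ETV1-sh1 are near the background. IRF9, the DNA-binding part of the type I interferon complex ISGF3, rose by 1.48 (adjusted p = 0.0113). It had 39.9 FPKM with ETV1-sh2, 25.0 with ETV1-sh1 and 16.3 with the scrambled hairpin in Colo800, and 37.6, 23.1 and 10.8 FPKM in A375 in the same order. IRF7 rose by 1.62 (adjusted p = 0.0206), IRF3 by 0.85 (adjusted p = 0.0327) and TMEM127, which with the ubiquitin ligase WWP2 promotes the breakdown of class I molecules, by 0.72 (adjusted p = 0.0403). RFX5, the X-box factor through which NLRC5 reaches class I promoters, fell (-0.73, adjusted p = 0.0365), as did EZH2, the methyltransferase of Polycomb (-0.96, adjusted p = 0.0465), and WWP2 (-0.68, adjusted p = 0.0467). IRF1, which acts on class I promoters, stood at -0.07 under ETV1-sh2 and -0.36 under ETV1-sh1; neither passed (adjusted p = 0.864 and 0.485). Between the hairpins IRF7, IRF3 and the cAMP-response factor CREB1 were higher with ETV1-sh2, beside 6.82% of all genes. Lower were 0 regulators, beside 6.91%. Between the lines 3 of the 23 were higher in Colo800, EZH2 (1.43), CREB1 (0.48) and NFYA (0.53), beside 31.8% of all genes. Lower were 6, CIITA (-2.31), STAT2 (-0.89), RFX5 (-0.80), RFXANK (-0.78), IRF3 (-0.45) and RELA (-0.36), near the share of 25.3% over all genes.

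Interferon-stimulated genes other than the class I genes were set beside them. Of 32 tested, 12 rose and 0 fell under ETV1-sh2, with a median of 1.20, while 0 rose or fell under ETV1-sh1, with a median of 0.26. The shares over all genes were 7.73% higher and 9.0% lower under ETV1-sh2, and 0.773% and 1.51% under ETV1-sh1. The 0 of 32 under ETV1-sh1 is thus near the background. In the direct comparison of the hairpins 6 were higher with ETV1-sh2, beside 6.82% of all genes, and 0 lower, beside 6.91%. IFIT3, a member of an antiviral family, had 19.8 FPKM with ETV1-sh2, 6.06 with ETV1-sh1 and 6.74 with the scrambled hairpin in Colo800, and 24.4, 9.75 and 4.11 FPKM in A375 in that order. IFIT3 rose by 1.87 under ETV1-sh2 (adjusted p = 0.0171), SAMD9L by 1.75 (adjusted p = 0.0199), IFI44 by 1.65 (adjusted p = 0.0196) and the ISG15-conjugating enzyme UBE2L6 by 1.33 (adjusted p = 0.0198). Between the lines 1 interferon-stimulated gene was higher in Colo800 and 17 were lower, beside 31.8% and 25.3% of all genes. Some genes used as markers of another cell type were also higher with ETV1-sh2. Of 4 fibroblast markers tested, 3 rose (COL1A1 by 1.88, PDGFRB by 1.25 and LUM by 0.92), beside 7.73% of all genes. PDGFRA was not called (0.47, adjusted p = 0.281). Below the filter, DCN was higher with ETV1-sh2 than with scrambled in both lines. COL1A2, also below it, had 1.32 FPKM with ETV1-sh2, 0.178 with ETV1-sh1 and 1.78 with scrambled in Colo800, and at most 0.0726 FPKM in A375. The 6 fibroblast markers summed to 31.7 FPKM with ETV1-sh2, 13.1 with ETV1-sh1 and 11.6 with the scrambled hairpin in Colo800, and to 36.0, 16.8 and 13.4 FPKM in A375. The 10 leukocyte markers summed to 77.9 to 327 FPKM with ETV1-sh2, 99.8 to 139.7 with ETV1-sh1 and 100.2 to 104.4 with the scrambled hairpin, and nearly all of this was CD68 and LYZ, while 0 of the 2 tested were called with either hairpin. Of 6 melanoma identity genes tested, 1 fell with each hairpin, S100B (-1.06 under ETV1-sh2 and -1.70 under ETV1-sh1), beside 9.0% and 1.51% of all genes. With either hairpin 0 of 2 endothelial and 0 of 1 epithelial markers were called. Over all genes 7.73% rose and 9.0% fell under ETV1-sh2, and 0.773% and 1.51% under ETV1-sh1. With so few genes, 0 called among leukocyte, endothelial or epithelial markers is near these shares. The part of the interferon-stimulated genes and of these markers in the class I values was not tested.

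The genes whose 4 differences from scrambled lay nearest to the members' medians were ZRSR2, a splicing factor, HPCAL4, RAB6B, SH3PXD2B and TSC1, an inhibitor of mTOR signalling. Their root mean square distances were 0.0363, 0.0404, 0.0452, 0.0553 and 0.0574 on the log2 scale, over 2 lines by 2 hairpins. This is a description over 4 points that share 2 scrambled libraries.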

How the data were processed

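The deposited values are the authors' FPKM; the submitters' processing notes name STAR 2.4, Cufflinks 2.2.1, Cuffnorm and the hg19 build. No label states the annotation, filters or strandedness. Tests used limma 3.58.1 (lmFit, eBayes with a variance trend) in R 4.3.3 on log2(FPKM + 1), in genes averaging 1 FPKM or more over the libraries, with Benjamini-Hochberg adjustment over all 11129 of them and a threshold of 0.05; the code was tested on simulated data. The design text mentions 2 replicate infections, but the table holds 1 library per line and hairpin. Nothing says that libraries came from separate cultures beyond the line and hairpin, so p-values measure only the spread between these 6 libraries. Each group has 1 library, so replicate numbers pair nothing; the line was the block.

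The 9 genes and the 13 other gene lists (163 of their 172 genes found in the table) were chosen with earlier results of these data known. Named from each list were up to 4 genes with the largest moderated statistic under ETV1-sh2, and every partner or regulator past the threshold in any fit. PSMA6, IRF1 and PSMB6 fall outside this rule and were named after their values were seen. The cell type markers MIA, TYR, MLANA, CD3E, MS4A1, PTPRC, DCN and COL1A2 fall outside it as well. The 5 most similar genes had the smallest root mean square distance over 4 differences. Alternatives were a pseudocount of 0.1, no filter, no variance trend, libraries centred on their medians, no block and each library left out. Promoter windows (250 bases before RefSeq starts on GRCh38.p14) were searched on both strands. GENCODE release 29 transcripts gave overlaps and the 50-base words shared between genes. FPKM carries no absolute depth, so no counting interval is given. Some genes are not reported here.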

Additional observations from a re-analysis of the deposited data

Results flagged for a closer look

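The class I heavy chains HLA-B and HLA-C lay below scrambled with both hairpins in one line and above it in the other. The difference between lines of the pooled hairpin effect, Colo800 minus A375 on the log2 scale, was 0.31 for HLA-B (SE 0.465, unadjusted p = 0.530), with positive differences in Colo800 and negative ones in A375. It was 0.23 for HLA-C (SE 0.433, unadjusted p = 0.617), in the same arrangement. JAK2, a kinase of interferon receptors, had the opposite arrangement, at -0.95 (SE 0.576, unadjusted p = 0.1545). None of the 3 passed in the limma interaction fit (adjusted p = 1.00 for each).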

How the results depend on the processing

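TAPBP between the lines held its call in 10 of 10 alternatives (adjusted p from 0.00191 to 0.0454). PSMB9 passed in 7 of 10 under ETV1-sh2 and 4 of 10 under ETV1-sh1, TAPBP in 3 of 10 and 5 of 10, and TAP1 between the lines in 4 of 10; each kept its direction throughout. Without a filter on low values, ETV1-sh2, ETV1-sh1 and the hairpins against each other called 0 genes higher, 0 lower and 0 members, and TAP1 between the lines was lost (0 members lower). Without the variance trend, ETV1-sh1 called 32 genes higher and 87 lower and 1 member, ETV1-sh2 1 member, and TAP1 was lost again (0). Centring called 1 member lower with ETV1-sh2 against ETV1-sh1, TAPBP, and turned the estimates between the lines to -0.0767 for B2M, -0.0470 for PSMB8 and -0.0531 for TAP2, none past the threshold. With a pseudocount of 0.1, 3 members were 2-fold higher with ETV1-sh1 in A375 and 1 in Colo800 scrambled over A375 scrambled. With 1 FPKM added to each gene the PSMB10 share was 2.99% in Colo800 ETV1-sh2 and 3.64% in Colo800 scrambled. The pooled fit with no replicate block called 0 genes. Leaving out each library gave ETV1-sh2 19 to 916 genes higher, 64 to 1058 lower and 0 to 2 members; ETV1-sh1 0 to 332, 0 to 502 and 0 to 2. It gave 0 to 848 higher, 0 to 891 lower and 0 to 1 members lower between the hairpins, and 2546 to 3287 higher, 1831 to 2523 lower, 1 member higher and 0 to 1 lower between the lines. The pooled and interaction fits stayed at 0; without a scrambled library no interaction could be fitted. With these 3, 31 estimates changed sign under an alternative, none of them called; over single leave-outs, pooled, HLA-B ranged from -0.19 to 0.12, HLA-C from -0.0675 to 0.16 and TAP2 from -0.22 to 0.25; ETV1-sh1, HLA-B -0.0678 to 0.24, HLA-C -0.0907 to 0.14 and TAP2 -0.0749 to 0.74; ETV1-sh2, HLA-C -0.0443 to 0.19, NLRC5 -0.13 to 0.20 and TAP2 -0.59 to 0.0365; between hairpins, B2M -0.22 to 0.0370, HLA-C -0.0574 to 0.15 and PSMB8 -0.0247 to 0.22; between lines, B2M -0.0724 to 0.0895, HLA-B -0.0862 to 0.0944, PSMB8 -0.0407 to 0.11 and TAP2 -0.24 to 0.25; interaction, PSMB9 -0.0934 to 0.12, TAP2 -0.36 to 0.73 and TAPBP -0.77 to 0.12. The cause was not tested. With 1 library per line and hairpin and no absolute depth, low genes such as NLRC5 are the least certain.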

Other observations

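MHC class II genes, which present peptides to CD4+ T cells, differed between the lines. All 9 tested class II pathway genes were lower in Colo800 than in A375 (limma, adjusted p under 0.05, median -3.06 on the log2 scale), beside 25.3% of all genes. With the hairpins 0 of the 9 were called, beside 7.73% higher and 9.0% lower over all genes under ETV1-sh2, and 0.773% and 1.51% under ETV1-sh1. Still, 8 of the 9 estimates were negative under each of ETV1-sh2 and ETV1-sh1, with medians of -0.31 and -0.83. Among all 11129 genes, 5185 and 5547 were negative. The exception was CTSS, at 1.19 and 0.65 (limma, adjusted p = 0.109 and 0.474). At an unadjusted p under 0.05 in limma, 5 were lower under ETV1-sh1, beside 1113 of 11129 genes, and 0 under ETV1-sh2, beside 1900. At the same threshold 1 was higher under ETV1-sh2, CTSS, beside 2065 of all genes. HLA-DRA had 54.8 FPKM with ETV1-sh2, 23.6 with ETV1-sh1 and 56.4 with the scrambled hairpin in Colo800. In A375 HLA-DRA had 605 FPKM with ETV1-sh2, 548 with ETV1-sh1 and 1271 with the scrambled hairpin. CIITA, the class II transactivator related to NLRC5, was lower in Colo800 as well (-2.31, adjusted p = 0.00410).

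Of 13 tested ligands of NK and T cell receptors, 3 rose under ETV1-sh2 and 1 fell, beside 7.73% and 9.0% of all genes. Under ETV1-sh1 0 were called, near the shares of 0.773% and 1.51% over all genes. CD274, which encodes PD-L1, rose by 1.37 (adjusted p = 0.0286). The NKG2D ligand ULBP2 rose by 1.05 (adjusted p = 0.0238) and the nectin PVRL2 by 0.91 (adjusted p = 0.0263). The adhesion molecule ICAM1 fell (-1.19, adjusted p = 0.0282). Of 9 tested genes for interferon receptors, their kinases and inhibitors of their signalling, 0 were called with either hairpin. That is near the shares over all genes, 7.73% and 9.0% under ETV1-sh2 and 0.773% and 1.51% under ETV1-sh1. Between the lines 5 were higher and 1 lower in Colo800 than in A375, beside 31.8% and 25.3% of all genes.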
